A study of Mus musculus with 16 samples.

Results

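The genes described here encode the proteins of the cytosolic ribosome in mouse myofibres. They were chosen by symbol: Rpl or Rps followed by a digit, together with Rplp0, Rplp1, Rplp2, Rpsa and Fau, leaving out symbols of numbered pseudogenes (with -ps), the Rps6k kinases and Rps19bp1. The rule found 90 genes among the 23220 symbols of the deposited tables, 53 for the large (60S) subunit and 37 for the small (40S) subunit by their symbol. Of these 90, 5 are annotated as pseudogenes in GENCODE M21 (Rpl37rt, Rpl6l, Rps3a2, Rps3a3 and Rps4l). Between 89 and 90 of them were present in each table, and 80 to 82 passed the filter on low values, so that statements on tested members do not cover the lowest ones.

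The libraries came from myofibres of the extensor digitorum longus, a fast hindlimb muscle, of male C57BL/6 mice, after the mononucleated cells that cling to fibres had been stripped off. The groups were old runners and old controls at 22 months of age, and young runners and young controls at 4 months, with 4 libraries each. Runners had a wheel in which they could run voluntarily for 5 weeks, and the design text calls the other groups controls. The labels name no transgene or deletion in any group. The labels do not say that the libraries came from separate animals, and p-values then measure the spread between these libraries only.

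A ribosome holds 1 copy of nearly every core protein, and cells make these proteins in matched amounts. Their mRNAs begin with a C and a run of pyrimidines, the 5′ terminal oligopyrimidine (TOP) tract, through which mTORC1 and the RNA-binding protein LARP1 control their translation. Striated muscle is known for a paralogue of its own, Rpl3l, which takes the place of Rpl3 in adult fibres.

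The start of the transcript is shown first, since the TOP tract is the feature that defines this mRNA class. The motif searched was a C at the annotated RefSeq start followed without a gap by at least 4 C or T, on the strand of the gene. RefSeq start windows (GRCm38.p6) were matched for 66 of the 90 genes, and 15 of them (22.7%) had the tract exactly at a start, against 813 of 27025 genes with a window (3.01%). Allowing the tract to begin up to 5 bases away gave 31 members (47.0%) and 5718 of all genes (21.2%). The windows below run 5′ to 3′ with the annotated start at base 16, and capitals mark the tract. The first 6 belong to genes with it, among them the stalk protein gene Rplp2 and the gene of the S6 kinase target Rps6. Rpl28, Rplp2 and Rps10 return below with higher values in young runners, none of them past the test. Of the 14 tested members with the tract, 10 were lower in young runners.

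Fau (chr19:6057932-6057961, + strand): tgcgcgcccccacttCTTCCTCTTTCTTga
Rps6 (chr4:86857353-86857382, - strand): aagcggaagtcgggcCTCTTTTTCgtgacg
Rps10 (chr17:27635230-27635259, - strand): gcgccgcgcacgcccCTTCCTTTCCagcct
Rpl28 (chr7:4792950-4792979, + strand): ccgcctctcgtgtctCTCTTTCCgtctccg
Rplp2 (chr7:141447636-141447665, + strand): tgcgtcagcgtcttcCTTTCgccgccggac
Rpl38 (chr11:114668565-114668594, + strand): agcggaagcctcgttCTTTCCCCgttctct
Rpl10a, a start without the tract (chr17:28328456-28328485, + strand): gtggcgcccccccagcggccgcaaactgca
Rpl3l, a start without the tract (chr17:24727811-24727840, + strand): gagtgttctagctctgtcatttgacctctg

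The tract was longest in Fau and in Rpl15, at 13 bases each. Rpl10a and Rpl3l also have a second RefSeq start each, without the tract at that base either. An annotated start can lie a few bases from the one used in muscle, so a window without capitals says only that these letters are not at that base.

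The libraries held 30.7 to 67.4 M reads assigned to genes (median 46.9 M), and mitochondrially encoded genes took 0.64% to 2.07% of them. Myofibre markers were at 4.89 M to 9.60 M summed normalised reads in all groups, with all 8 of 8 markers detected. Of fibro-adipogenic progenitor markers, 7 of 8 had reads in old runners (sums 1949 to 3923) and 7 of 8 in old controls (237 to 2003), with Pdgfra at 0 in both. All 8 had reads in young runners (4005 to 11929) and in young controls (14.4 to 592). The sums were thus higher in young runners than in young controls in every library, and their part in the differences below was not tested. All 6 smooth muscle and pericyte markers also had reads in the young groups, summing to 600.3 to 2880 in young runners and 34.3 to 430.2 in young controls, without overlap. All 9 endothelial markers had reads, summing to 1068 to 5069 in young runners and 282 to 903 in young controls, again without overlap, and the part of both lists was not tested. Leukocyte markers showed less separation, at 920 to 2844 in young runners and 248 to 2353 in young controls, with Adgre1 and Ptprc at 0 in both. In the old groups the sums of these lists overlapped. Smooth muscle and pericyte markers summed to 509 to 3198 in old runners and 280 to 1616 in old controls, with Myh11 at 0 in these controls. Endothelial markers summed to 877 to 3470 and 484 to 4390, and leukocyte markers to 513 to 1478 and 403 to 1098. Their part was not tested.

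Levels are given as normalised reads, which are whole reads recovered from the deposited values, divided by a size factor over all 16 libraries. Compared per kilobase of exon, the 85 protein-coding members had a median of 905 normalised reads, with quartiles at 367 and 1615. The medians were 784 for the 51 coding genes of the large subunit and 1120 for the 34 of the small subunit. Rplp0, the scaffold of the acidic stalk that binds translation factors, was highest at 13098 reads per kilobase, 14.5 times the median. Rpl3l followed at 10093 and Rpl4, a core protein lining the exit tunnel, at 6574. These 3 genes alone held 25.4% of all member reads.

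At the low end Rpl39l, a paralogue of Rpl39 known from the testis, was at 0 in 14 of the 16 libraries. It had 3.82 normalised reads in a young runner and 0.803 in a young control. The 14 include the old controls, which had no deposited value for it and were counted as 0. Next lowest were the pseudogenes Rps3a3, at 6.80 reads per kilobase, and Rps4l, at 12.5. Rpl13a, known from the interferon-controlled GAIT complex, was at 20.2 reads per kilobase, far under the median although it encodes a core protein. Of the short stretches of its transcript, 57.4% also occur in transcripts of 6 other genes. Its exons share positions with 3 other annotated genes, Gm45713, Mir5121 and Snord33. The part of these shared sequences and positions in the low value of Rpl13a was not tested.

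Read counts for this family depend on how copies were treated. In the median coding member 41.8% of the 50-base stretches of the longest coding transcript also occur in transcripts of other genes, and in 31 members the share was over 50%. Whether reads mapping to several places were counted is not given in the sources used here. Across the 85 coding members the rank correlation between this share and the level per kilobase was -0.09, given as a description since the genes share libraries. The library chemistry keeps no strand, so reads of an overlapping antisense gene cannot be told apart from those of a member.

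**Figure D1:**
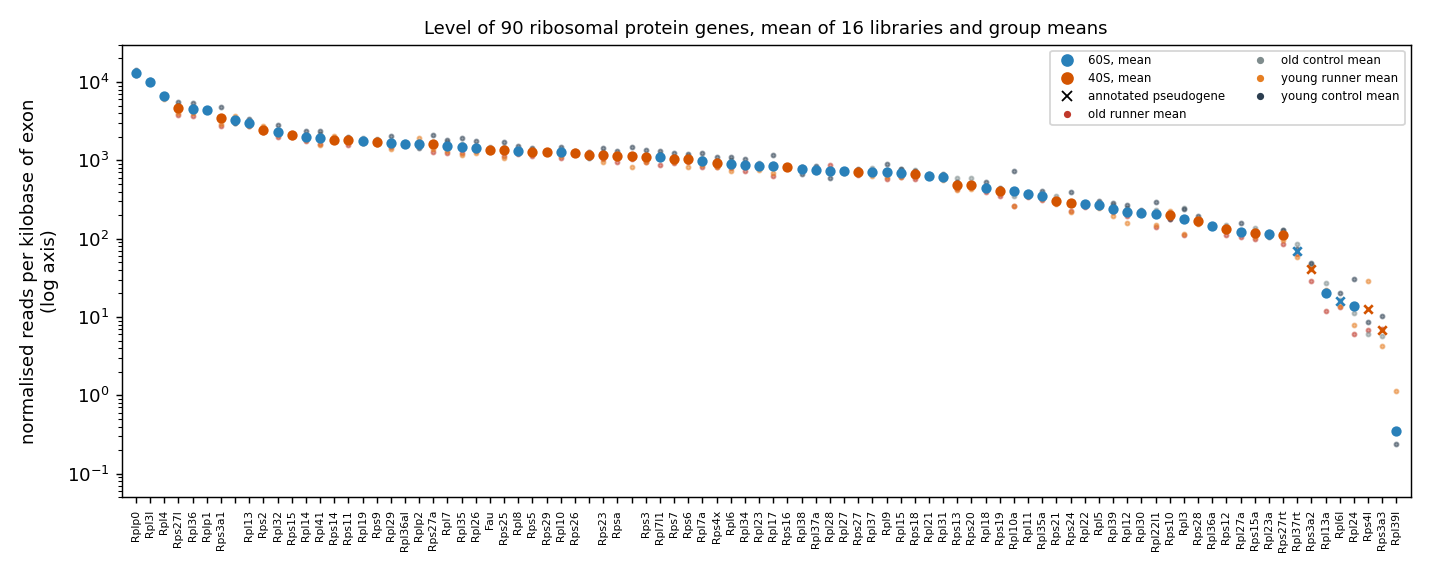
Normalised reads per kilobase of exon (log axis) for each of the 90 genes in order of level. Large points are means over 16 libraries by subunit, crosses are annotated pseudogenes and small points are group means. Rplp0 (13098) and Rpl3l (10093) stand at the top, and Rpl39l, with 0 reads or no deposited value in most libraries, at the bottom.

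Some paralogues outranked the gene they are named after. Per kilobase, Rps27l had 4622 reads against 718 for Rps27, and Rpl36al had 1640 against 143 for Rpl36a. Rpl7l1, a paralogue of Rpl7, had 1101 against 1511 for Rpl7, and Rpl22l1 had 205 against 276 for Rpl22. Of Rpl36a, 85.5% of the stretches are shared with other genes, and of Rps27 63.1%, against 24.9% in Rpl36al and 13.7% in Rps27l. The part of shared stretches in these levels was not tested. Exon lengths count all annotated exons of a gene and can exceed its longest coding transcript. They were 1989 bases against a transcript of 552 for Rpl22l1, and 2911 against 2051 for Rpl22. For Rpl36a they were 1655 against 483, and for Rpl36al 1353 against 1276. The order and distance within a pair can therefore depend on the length used.

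Members moved together from library to library. The correlation of each member with the median of the others, over the 16 libraries, had a median of 0.87 among the 80 genes tested in all comparisons, and 59 were above 0.8. This is a description, since all members share the libraries and their depth. Of the 6 genes at or under 0.5, the lowest were Rpl3 (0.17), Rpl28 (0.30), Rpl7l1 (0.42), Rpl10a (0.45) and Rplp2 (0.47).

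The share of assigned reads in ribosomal protein genes was 0.361% to 0.414% in old runners (0.392% ± 0.024, SD, n = 4) and 0.454% to 0.507% in old controls (0.476% ± 0.024, n = 4). All old runner libraries lay below all old control libraries in this share. After division by size factors, the median log2 deviation over the 80 members overlapped between the old groups. There O1ex (0.087) lay above Oc1 (0.074) and Oc4 (-0.088). The share of reads was 0.322% to 0.513% in young runners (0.401% ± 0.085, n = 4) and 0.375% to 0.646% in young controls (0.513% ± 0.116, n = 4). The young groups overlapped, with the runner Y3ex high and the control Yc5 low. The control Yc4 was the highest of the 16 libraries. In bulk RNA, fewer of these mRNAs per fibre and more of other RNA in the library cannot be told apart.

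**Figure D2:**
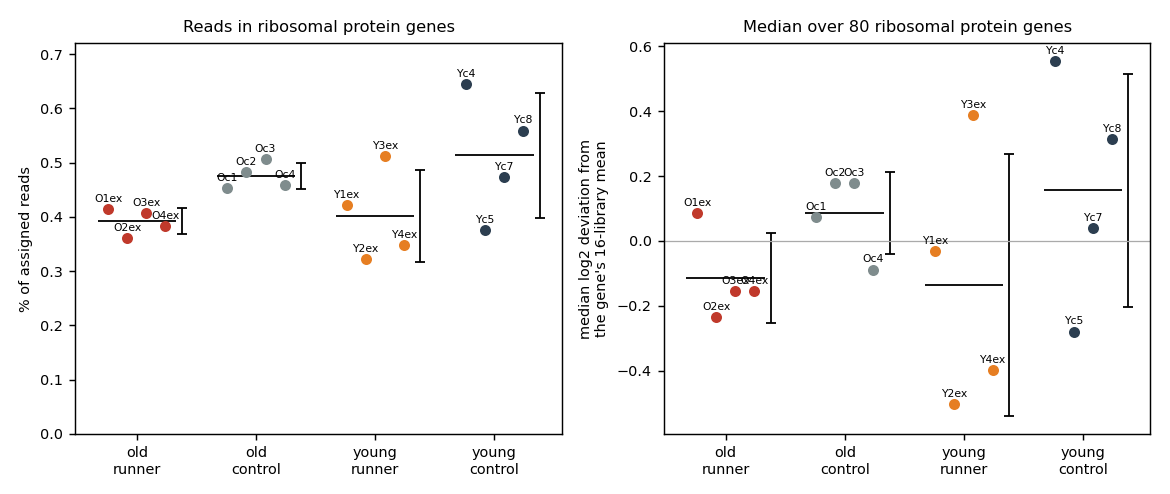
Left, percent of assigned reads in the 90 ribosomal protein genes for each library. Right, the median over 80 members of the log2 deviation from each gene's mean over 16 libraries. Points are libraries, lines group means and bars 1 SD (n = 4). Old runners lie below old controls on the left without overlap, and both young groups spread widely. On the right the old groups overlap, with O1ex (0.087) above Oc1 (0.074) and Oc4 (-0.088).

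Running in old mice came with slightly lower levels of most ribosomal protein genes, but no single gene passed the test. Of 80 members tested, 66 were lower in old runners than in old controls (82.5%, against 45.2% of all 9379 genes tested). Their median difference was -0.16 on the deposited log2 scale, against 0.03 for all genes. With no filter on low values 73 of 89 were lower, with a median of -0.15. With limma and an adjusted p under 0.05, 0 members were called, as 12 genes were in all (0.128% of those tested). At an unadjusted p under 0.05 there were 15 members, all lower (18.8%, against 7.04% of all genes lower at that threshold). With voom on the recovered reads 0 of 80 members were called, as 3 of all genes were. Estimated library weights gave 4 of 80 members, where 688 of all 9379 genes were called. The 47 large subunit genes had a median of -0.14 with 37 lower, and the 33 small subunit genes -0.19 with 29 lower.

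In 16 members all 4 old runners were below all 4 old controls (20%, against 5.29% of all genes). They were Rpl3, Rpl7, Rpl7a, Rpl7l1, Rpl9, Rpl15, Rpl17, Rps3, Rps3a1, Rps12, Rps13, Rps18, Rps19, Rps20, Rps24 and Rps27l. These genes share libraries and are not independent of each other.

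Rpl3, whose protein reaches the peptidyl transferase centre, had 215, 422, 521 and 238 normalised reads in old runners, against 982, 789, 683 and 701 in old controls. Every runner was under every control. The difference was -0.75 (SE 0.19, adjusted p = 0.113 with limma), which did not pass the test. Rps27l, a paralogue of Rps27 known as a p53 target, had 3255, 2784, 3266 and 2921 reads in old runners and 3861, 4189, 4675 and 4060 in old controls. The groups were apart, with a difference of -0.40 (SE 0.12, adjusted p = 0.144). Rpl7l1 had 2829, 3194, 3217 and 2857 reads in old runners, against 3812, 3669, 4572 and 4675 in old controls, again apart. Its difference was -0.41 (SE 0.12, adjusted p = 0.154).

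The largest differences upward in old runners were small. Rpl28, a protein of the large subunit, had 2112, 1366, 1206 and 1649 reads in old runners, against 1368, 1412, 1304 and 1156 in old controls. The groups overlapped, and the difference was 0.20 (SE 0.16, adjusted p = 0.540). Rplp2, one of the acidic stalk proteins, differed by 0.16 (adjusted p = 0.642).

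Differences in old mice followed exon length over all genes (rank correlation 0.34 over 9216 genes, a description), and members are short, with a median of 1776 bases of exon against 4498 over all genes. Among the 80 tested members the sign was the opposite, with a rank correlation of -0.25, also a description. With the length trend removed, the median of the members was -0.07 and 55 of 80 were lower, against a median of 0.01 for all genes. The part of length in the difference was not tested further.

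In young mice running came with lower levels again, and 1 gene, Rpl10a, fell. Of 82 members tested, 72 were lower in young runners than in young controls (87.8%, against 48.5% of all 10624 genes), with a median of -0.23 against 0.01 for all genes. With no filter 77 of 90 were lower, with a median of -0.22. Leaving out 1 library moved the median by over 1.5 times in 5 cases: it was -0.14 without Y2ex, -0.14 without Y4ex, -0.12 without Yc4, -0.40 without Y3ex and -0.38 without Yc5. Rpl10a was the only member called, 1 of 82, where 81 of all genes were called (0.762%), 51 of them lower (0.480%). At an unadjusted p under 0.05 there were 13 members, all lower (15.9%, against 8.51% of all genes lower at that threshold). Groups were apart in 2 members, Rpl10a among them, both lower, and this share of 2.44% was below the 5.77% of all genes. The number of called members was 0 with no filter and 0 with voom. With estimated library weights it was 19 of 82, where 1394 of all 10624 genes were called. The 49 large subunit genes had a median of -0.29 with 44 lower, and the 33 small subunit genes -0.19 with 28 lower.

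Rpl10a encodes a protein of the mobile stalk of the large subunit, next to the exit site for tRNA. It lies on chromosome 17 (GRCm38, 28328471 to 28331033, + strand; ENSMUSG00000037805.15), and its start window is printed above. Young runners had 740, 435, 822 and 556 normalised reads, against 1567, 1962, 2099 and 1480 in young controls. The highest runner was well under the lowest control. Rpl10a thus averaged 638 ± 175 reads in young runners and 1777 ± 300 in young controls (SD, n = 4 each), and fell by 1.27 on the log2 scale (SE 0.20, adjusted p = 0.0357 with limma).

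The call for Rpl10a was close to the threshold. Over 16 alternatives the difference ranged between -1.54 and -1.14 and the adjusted p between 6.7e-04 and 0.134, and 7 of the 16 kept the call. It was lost without any one of Y1ex (adjusted p = 0.0525), Y2ex (0.134), Y4ex (0.0995), Yc5 (0.0735), Yc7 (0.133) or Yc8 (0.0631).

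Of the 50-base stretches of the Rpl10a transcript, 77.5% are shared with 5 other genes. The processed copy Rpl10a-ps1 had 22 to 154 whole reads per library, with 45 to 72 in young runners and 80 to 154 in young controls. These reads are not corrected for depth. Y3ex had 72 reads at a size factor of 0.89 and Yc5 had 80 at 1.13, so after division Y3ex lies above Yc5 and the groups overlap. The gene also shares exon positions with 1 other annotated gene, CT025652.2, whose reads could not be separated.

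In old mice Rpl10a had 622, 664, 805 and 468 reads in runners, against 565, 932, 1013 and 880 in controls. These groups overlapped, with a difference of -0.27 (SE 0.17, adjusted p = 0.454). A test for a change of the running effect with age gave 1.002 for Rpl10a (old minus young, SE 0.27, adjusted p = 0.547), which did not pass.

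Rps24, a small subunit protein mutated in some patients with Diamond-Blackfan anaemia, had 1544, 930, 1754 and 1217 reads in young runners and 3268, 1668, 2148 and 2699 in young controls. A single runner, Y3ex, was above the lowest control, and the difference was -0.76 (SE 0.24, adjusted p = 0.155). In old mice Rps24 had 1337, 1307, 1631 and 1341 reads in runners and 1707, 2021, 1893 and 1726 in controls, apart, with a difference of -0.31 (SE 0.12, adjusted p = 0.231).

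Rplp2 had 3844, 3020, 6020 and 2925 reads in young runners, against 3203, 2412, 2551 and 3575 in young controls. The groups overlapped and Y3ex was the highest of the runners (difference 0.36, SE 0.24, adjusted p = 0.451). Rpl28 differed by 0.26 (adjusted p = 0.562) and Rps10 by 0.24 (adjusted p = 0.601).

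The libraries that stand highest in ribosomal protein reads, Y3ex among runners and Yc4 among controls, bear on this comparison. Without both, in a setting chosen after seeing the data, the median of members was -0.30. In that setting 3 members were called, Rpl10a and Rps3a1 among them, as 511 were among all genes. Mitochondrially encoded reads were highest in Y1ex, at 2.07%, and Yc5, at 1.94%. Without these, also chosen after seeing the data, the median was -0.39 and 0 were called, as 2 were among all genes.

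**Figure D3:**
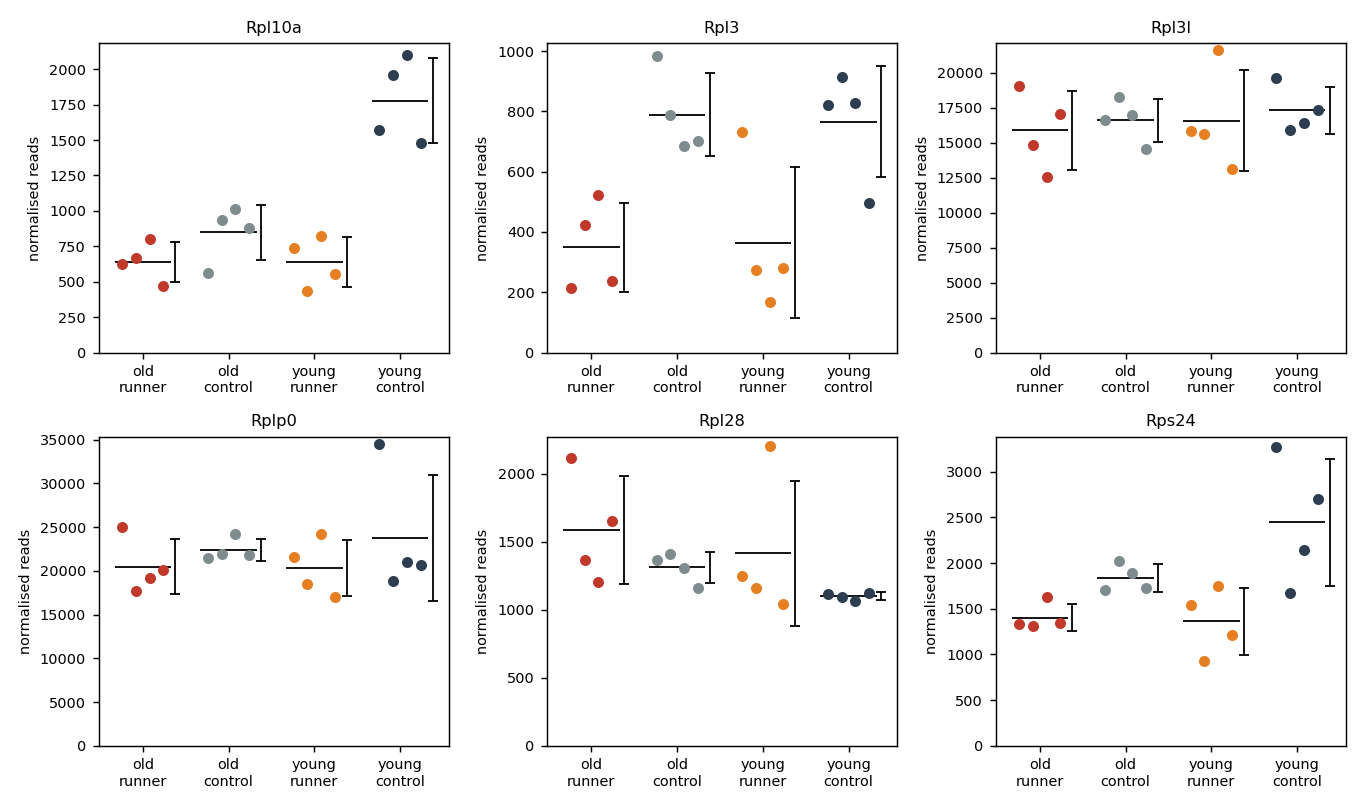
Normalised reads of 6 ribosomal protein genes in each library by group. Points are libraries, lines means and bars 1 SD (n = 4). Rpl10a is higher in young controls (1480 to 2099) than in any other library. Rpl3 in old runners (215 to 521) lies below old controls (683 to 982), while Rpl3l overlaps between all groups.

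Rpl3 and its muscle paralogue Rpl3l were set side by side. In young mice Rpl3 had 733, 274, 169 and 282 reads in runners, against 822, 913, 828 and 497 in controls. A single runner, Y1ex, lay among the controls, and the difference was -0.89 (SE 0.30, adjusted p = 0.180). Rpl3l had 12560 to 19073 reads in old runners, 14511 to 18254 in old controls, 13122 to 21641 in young runners and 15898 to 19651 in young controls. All these ranges overlapped. Its differences with running were -0.07 in old mice (SE 0.15, adjusted p = 0.850) and -0.09 in young mice (SE 0.17, adjusted p = 0.830).

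Per kilobase, Rpl3l made up 98.8% ± 0.7 of Rpl3 plus Rpl3l in old runners and 97.6% ± 0.4 in old controls (SD, n = 4 each), a difference of 1.195 points. An exact permutation test, two-sided over 70 assignments of n = 4 against 4, gave p = 0.0571 (adjusted over 4 comparisons 0.171), where the smallest p possible is 0.0286. In young mice the share was 98.8% ± 0.8 in runners and 97.7% ± 0.6 in controls, a difference of 1.07 points (exact permutation p = 0.0857, adjusted 0.171). Between ages it differed by -0.15 points in controls (exact permutation p = 0.743) and -0.03 points in runners (p = 0.971). None of the 4 passed. The exon lengths used were 3175 bases for Rpl3 and 1643 for Rpl3l, although their longest coding transcripts have 1351 and 1375. Without length correction the Rpl3l share of reads was 97.7% in old runners and 95.5% in old controls. In young runners it was 97.7% and in young controls 95.7%. No 50-base stretch of Rpl3l occurs in another gene, whereas 85.6% of those of Rpl3 occur in 26 other genes, so the Rpl3 values rest on fewer unique positions.

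The comparisons of running in old and in young mice share no library. Of the 80 members tested in both, 63 were lower in runners at both ages (78.8%, against 30.4% of 9356 genes), and 6 were higher at both, among them Rpl28, Rpl38, Rplp2 and Rps14. Across members the differences correlated with r = 0.70, and across all genes with r = 0.54. Both are descriptions, over genes that share libraries. Rpl3 had the lowest difference of the members in old mice and, after Rpl10a, the lowest in young mice.

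**Figure D4:**
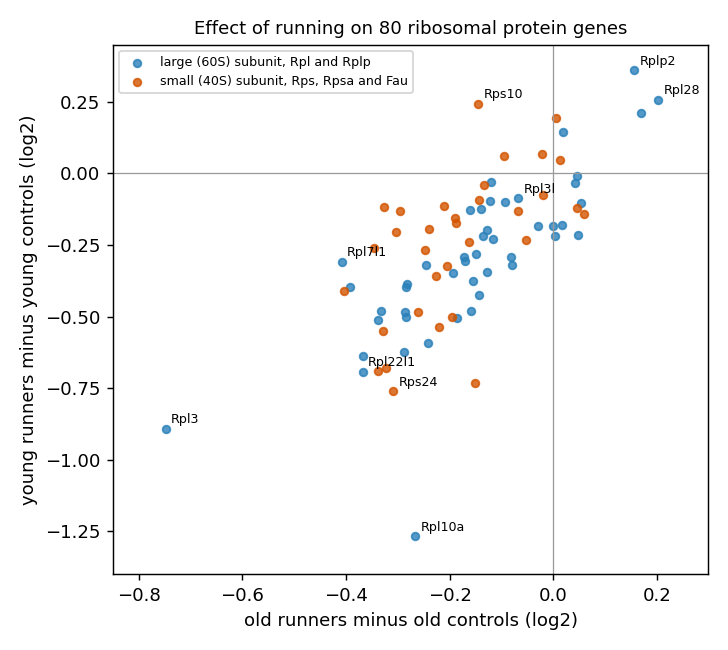
Difference between runners and controls on the deposited log2 scale in old mice (x axis) and young mice (y axis) for 80 members, by subunit. Most points (63) lie at the lower left, below 0 on both axes. Rpl10a is lowest in young mice (-1.27) and Rpl3 lowest in old mice (-0.75), while Rplp2 and Rpl28 lie at the upper right.

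Members with the tract at their annotated start had a median in old mice of -0.16 over 14 tested genes with it and -0.16 over 47 without. In young mice the medians were -0.13 over 14 genes with it, 10 of them lower, and -0.26 over 48 without, 46 of them lower. These are descriptions with no test. Small nucleolar RNA genes lie inside 30 of the 90 members on the same strand. In old mice the 28 tested hosts had a median of -0.15 and the other 52 members -0.16. In young mice these medians were -0.26 over 29 hosts and -0.22 over 53 other members.

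None of the members with roles outside the core passed the test with running. In old runners against old controls, Rps6, the S6 kinase target, differed by -0.19 (adjusted p = 0.464), Rps27a, made as a fusion with ubiquitin, by -0.33 (adjusted p = 0.298), and Fau, made as a fusion with a ubiquitin-like protein, by -0.07 (adjusted p = 0.865). In young runners against young controls these were -0.50 (adjusted p = 0.294), -0.55 (adjusted p = 0.256) and -0.13 (adjusted p = 0.820). Rpl5 and Rpl11, which travel with 5S rRNA and can bind Mdm2, differed by -0.12 and -0.14 in old mice and by -0.23 and -0.12 in young mice. Rpsa, also known as a laminin receptor, differed by -0.25 and -0.27. Rplp0 differed by -0.13 in old mice and -0.20 in young mice, and its stalk partner Rplp1 by 0.05 and -0.01.

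No ribosomal protein gene passed the test between the ages. Between old and young controls 0 of 81 members were called, where 11 of all 9831 genes were (0.112%), and 1 member, Rpl10a, was lower at an unadjusted p under 0.05 (1.23%, against 5.75% of all genes). It was also the only member with all old controls below all young controls (1.23%, against 2.84%). The median was -0.04 and 51 were lower in old controls. The median was 0.07 without Yc4 and -0.15 without Yc5, so its direction rests on single libraries. Rpl10a had 565, 932, 1013 and 880 reads in old controls, against 1567, 1962, 2099 and 1480 in young controls. Groups were apart, with a difference of -0.85 (SE 0.19, adjusted p = 0.140), the member with the smallest p. This comparison and that of running in young mice share the 4 young control libraries, in which Rpl10a was high. Rpl28 went the other way, at 1368, 1412, 1304 and 1156 reads in old controls and 1118, 1095, 1065 and 1125 in young controls, also apart (difference 0.22, SE 0.14, adjusted p = 0.588).

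Between old and young runners 0 of 80 members were called, where 2 of all 9387 genes were (0.0213%), and 0 were lower at an unadjusted p under 0.05, against 2.5% of all genes. In 0 members were all old runners below all young runners, against 1.54% of all genes. The median was 0.01, with 37 lower, and it was 0.15 without Y3ex.

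The effect of running did not differ with age past the test in any of the 80 members, nor in any of the 9356 genes (0.0%), with limma. At an unadjusted p under 0.05 there were 2 members, Rpl10a among them and both positive, and 585 genes (6.25%). The median difference between the effects was 0.12 (old minus young), against 0.03 for all genes, and without single libraries it lay between -0.00017 and 0.26, lowest without Yc4 and highest without Y3ex.

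**Figure D5:**
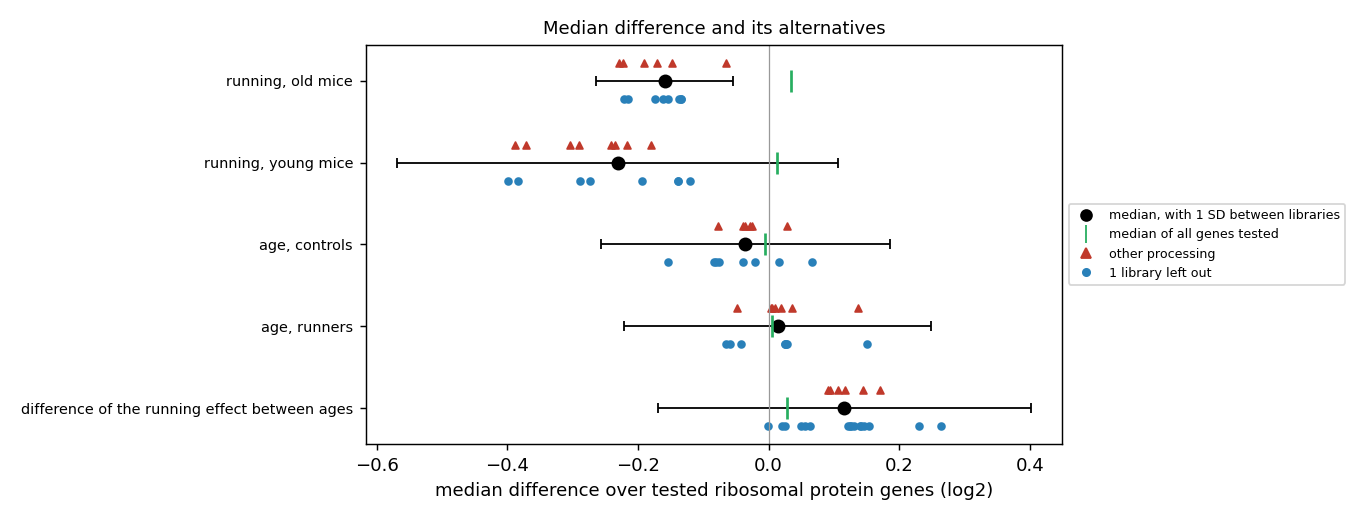
Median difference over tested members (log2) in each comparison, with 1 SD between libraries of the median member level (bars), the median of all genes (green), other processing (triangles) and 1 library left out (small points). For the 2 running comparisons all points lie below 0, and for the 2 age comparisons they lie on both sides.

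The rest of the translation machinery was looked at through lists of partners. Elongation factors (8 tested), initiation factors (30), ribosome assembly and rRNA synthesis genes (33) and other TOP mRNAs (14) had 0 genes called in each comparison. Their medians with running were 0.09, -0.03, 0.01 and 0.02 in old mice and 0.11, 0.14, -0.01 and 0.03 in young mice. Eef1b2, an exchange factor for the elongation factor 1A, differed by -0.35 in old mice (adjusted p = 0.265) and -0.65 in young mice (adjusted p = 0.138). Polr1b, a subunit of RNA polymerase I, differed by 0.70 (adjusted p = 0.0970) and 0.77 (adjusted p = 0.0799), and Nop2, an rRNA methyltransferase, by 0.84 in young mice (adjusted p = 0.0619).

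Of 16 genes of mTORC1 control, 1 was called: Tsc2, which restrains mTORC1, rose in old runners by 1.05 (SE 0.15, adjusted p = 0.0458). Without single libraries its difference was 0.95 to 1.17 and the call held only without Oc1 (adjusted p = 0.00797); without any one of the other 7 libraries the adjusted p was 0.0560 to 0.219. It was also lost with no filter (0.0640) and with voom (0.0583). In young runners it differed by 0.64 (adjusted p = 0.254). Larp1, the TOP-binding protein, differed by 0.64 in old runners (adjusted p = 0.163).

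Noncoding hosts of small nucleolar RNAs, which carry TOP tracts without coding for ribosomal proteins, formed a list of 9 genes with 0 called at either age. Of the 9, 5 were tested in old mice (median -0.38, 5 of 5 lower, against 45.2% of all genes) and 7 in young mice (median -0.74, 7 of 7 lower, against 48.5%). The filter on low values can be met by the 4 control libraries alone, so a low host that passed through them had to be lower in runners, and these counts are a description of the tested hosts only. Gas5, the best known of them, differed by -0.88 in old mice (SE 0.23, adjusted p = 0.125) and by -1.34 in young mice (SE 0.27, adjusted p = 0.0560). Snhg1 differed by -0.77 in old mice (adjusted p = 0.109) and Snhg4 by -0.74 in young mice (adjusted p = 0.0957).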

How the data were processed

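Bulk RNA-seq was done on 16 myofibre libraries made from 10 ng of total RNA with SMART-Seq v4 and an ultralow-input ligation kit, per the labels' protocols. Trim Galore, STAR, featureCounts of Subread, DESeq2 and the build mm10 are named, per the submitters' processing notes, and without versions, and no gene annotation is stated in the sources used here. Each deposited table holds log2 values from the variance-stabilising transformation of DESeq2, made by the authors separately for 4 tables of 8 libraries, in which a gene with no read sits at a floor of 6.73 to 7.69. A difference near the floor understates the change. The transformation was inverted, and 100% of the recovered values were whole reads with a tolerance of 0.02 (the farthest was 0.0112 away), and all 307324 values shared by 2 tables had the same reads. These were divided by median-of-ratios size factors over 16 libraries and used for levels. A library without a deposited value for a gene was given 0 reads for it. Reads carry no molecular identifiers and are not independent molecules. Differences were tested on the deposited scale with limma 3.58.1 in R 4.3.3 (lmFit, eBayes with trend, two-sided, Benjamini-Hochberg over all genes tested, threshold 0.05), per table, for genes that exceeded the floor by 1 or more in 4 or more libraries. The change of the running effect with age was fitted over all 16 libraries. The procedure was checked on simulated data. Python 3.11.15, scipy 1.17.1 and matplotlib 3.10.9 were used for the rest. Of the symbols, 95.8% matched GENCODE M21, which gave positions, exon lengths and gene types. The runners O1ex to O3ex and Y1ex to Y3ex were matched to samples by title, and the other columns to their group only. The 20 symbols that a spreadsheet had turned into dates were not named.

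The members, partner lists and markers were chosen with earlier results of these data known. Members named are those past the threshold, the 3 with the smallest p in each direction per comparison, paralogue pairs, members with roles outside the core, and the 3 highest and lowest per kilobase, and for partner lists at most 2 genes per comparison. Other members are named where a count or pattern consists of them, chosen after their values were seen. A few members are counted in the totals but not reported here by name.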

Additional observations from a re-analysis of the deposited data

Results flagged for a closer look

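Single libraries stood far from the other 3 of their group in 11 of 154 member and group combinations tested with Dixon's test, where chance flags about 1 in 20. In old runners these were Rpl22 at 824.5, Rpl39 at 407.2 and Rps6 at 1664 normalised reads, all in O1ex, and Rps24 at 1631 in O3ex. In old controls they were Rplp0 at 24240 in Oc3 and, as a low value, Rplp1 at 1878 in Oc4. In young runners they were Rplp1 at 3900 in Y3ex and Rpl39l at 3.822 in Y4ex, where the other 3 libraries had 0. In young controls they were Rpl4 at 19010 and Rplp0 at 34470, both in Yc4, and Rpl39l at 0.8027 in Yc8, where the other 3 had 0. With 3 libraries at 0, any read in the last is flagged, so both Rpl39l flags were fixed in advance and say nothing on distance.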

How the results depend on the processing

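The median member difference moved by less than 1 SD between libraries under every alternative run. In young mice this is a wide measure. On log2 normalised reads, the median member level had an SD of 0.40 in young runners and 0.36 in young controls. Its group means on that scale were -0.14 and 0.16. The median difference of -0.23 is on the deposited scale, which is not the same. With 1 library left out the median difference lay between -0.22 and -0.13 in old mice with running and between -0.40 and -0.12 in young mice. With age it lay between -0.15 and 0.07 in controls and between -0.06 and 0.15 in runners. Counts of called members changed more. Estimated library weights gave 4 called members in old mice with running (Rpl3, Rpl7l1, Rps27l and Rps3a1, all lower), 19 in young mice and 1 between controls (Rpl10a), as calls over all genes went to 688, 1394 and 461, where 12, 81 and 11 were called without weights. In young mice with running, 0 members were called with no filter and 0 with voom on recovered reads, 3 without Y3ex and Yc4, 0 without Y1ex and Yc5, and 0 to 1 with 1 library left out. The cause was not tested. Calls over all genes in young mice were 24 with no filter, 13 with voom, 143 with median centring, 160 with the length trend removed, 511 without Y3ex and Yc4 and 2 without Y1ex and Yc5, and 0 to 181 with 1 library left out (181 without Yc4, 0 without Y2ex). In old mice they were 7, 3, 23 and 5 in the first 4 of these settings, 27 with a filter of 2 above the floor, and 1 to 295 with 1 library left out (295 without Oc1). Between controls they were 3 with no filter, 3 with voom, 24 with the length trend removed and 3 to 52 with 1 library left out (52 without Yc4), between runners 7 with weights and 0 to 3 with 1 library left out, and for the change with age 27 with weights and up to 5 without Yc4. The Rpl3l share of reads without length correction differed by 2.24 points in old and 2.01 in young mice with running, on the same side of the threshold.

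The replicate block could be fitted for runners 1 to 3 of the 2 ages only: it gave a median of -0.05, 0 called members and 0 called genes. Deviations of same-numbered libraries correlated at -0.24, 0.092 and -0.398 over 9387 genes. Each value rests on 1 pair of libraries, so they cannot decide whether the numbers pair these libraries. No paired analysis was possible for the other comparisons because the control columns carry numbers that are not shared with the runners or match no control title. With 4 libraries a group, depth was not limiting for most members, but 8 of 90 in young and 10 in old mice were too low to test with running.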
